A study of Mus musculus with 3 samples.

Results

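The enzymes that write, copy and erase DNA methylation were examined here in cells sorted from mouse lymph nodes. The genes were chosen by name, as 7 of the 17857 genes in the deposited count table. They comprise the DNA methyltransferase genes Dnmt1, Dnmt3a and Dnmt3b, the TET dioxygenase genes Tet1, Tet2 and Tet3, and Uhrf1, whose product guides Dnmt1. All 7 were found, and the symbol of each matched its Entrez identifier in RefSeq. The cells came from nodes draining B16F10 melanomas, a transplantable mouse tumour line, in C57BL/6J mice on day 14 of growth, with no treatment. They were sorted as negative for CD11c and positive for Ly6C and c-kit, and RNA was sequenced from 8 ng of total RNA per library. There was 1 group of 3 libraries, from 3 repeat experiments called replicates 1, 2 and 3, and no control group, so levels were compared between genes and with fixed reference levels. Nodes were pooled before the sort, and the sources used here do not give the number of mice behind a library.

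DNA methylation in mammals sits mainly on cytosines that precede a guanine (CpG). Dnmt3a and Dnmt3b place methyl groups on unmethylated DNA, while Dnmt1 copies the pattern to the new strand after replication, brought there by Uhrf1, which binds CpG sites methylated on the old strand only. TET enzymes oxidise methylcytosine, which opens the way to its removal by base excision repair or by dilution at replication. In blood cells Dnmt3a and Tet2 are known as guards of stem cell differentiation, and both are often mutated in myeloid malignancy.

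The libraries held 9077195 to 13885509 counts, and no pair agreed within sampling noise. Levels are given as CPM, the counts scaled to a common library total. Of the sort genes, Kit, which encodes c-kit, stood at 9.83, 5.35 and 5.92 CPM in replicates 1, 2 and 3, and Itgax, which encodes the excluded CD11c, at 26.95, 43.2 and 24.0 CPM. Ly6c1 and Ly6c2, which encode Ly6C, stood at 19.1, 4.28 and 17.6 CPM and at 11.5, 121 and 41.2 CPM, so that replicate 2 was lowest for the former and highest for the latter. Of 6 stem and progenitor genes, 4 lay above 1 CPM and 1, Myb, above 50 CPM, shares near those of all genes tested (68.6% and 19.9%). Cd34 had no count in replicate 2. None of 4 melanoma genes lay above 1 CPM. The libraries were uneven in the markers of other cells. All 8 T cell genes lay above 50 CPM, and the T cell list summed to 3035, 3760 and 3784 CPM. The sum of 7 erythroid genes was 4285, 64.6 and 308 CPM and that of 6 macrophage genes 799, 93.0 and 196 CPM. The sum of 2 CD8 genes was 26.8, 947 and 258 CPM, and that of 5 natural killer (NK) cell genes was 58.3, 494 and 199 CPM. The sum of 6 neutrophil genes was 190, 68.5 and 709.9 CPM. Vsig4 of the macrophage list and Epor of the erythroid list had no count in replicate 2. Replicate 1 thus stood apart by its erythroid and macrophage genes, replicate 2 by its CD8 and NK cell genes, and replicate 3 by its neutrophil genes. The chi-square of the counts per degree of freedom was 118 for replicates 1 and 2, 67.4 for 2 and 3, and 42.7 for 1 and 3. Results are given with and without replicate 1 where it moves them, and the closing section also covers leaving out the others. In bulk RNA, fewer cells of a type and less RNA per cell cannot be told apart.

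All 7 genes were read in every library. Against a reference of 1 CPM, all 7 lay above it in edgeR's quasi-likelihood test, as did 68.6% of the 15490 genes tested. Against 50 CPM, 4 lay above (Tet3, Dnmt1, Tet2 and Dnmt3a), against 19.9% of the genes tested. Uhrf1 and Dnmt3b, 2 of the 7, lay below 50 CPM, against 66.7% of the genes tested, and Tet1 was not separated from it. The median of the 7 mean levels was 129.5 CPM (Dnmt3a), against 12.4 CPM over all genes tested. Per kilobase of gene length, which removes the advantage of long genes, 4 of the 7 stood above the median gene (5.50 CPM per kilobase) and Uhrf1, Tet1 and Dnmt3b stood below it.

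**Figure D1:**
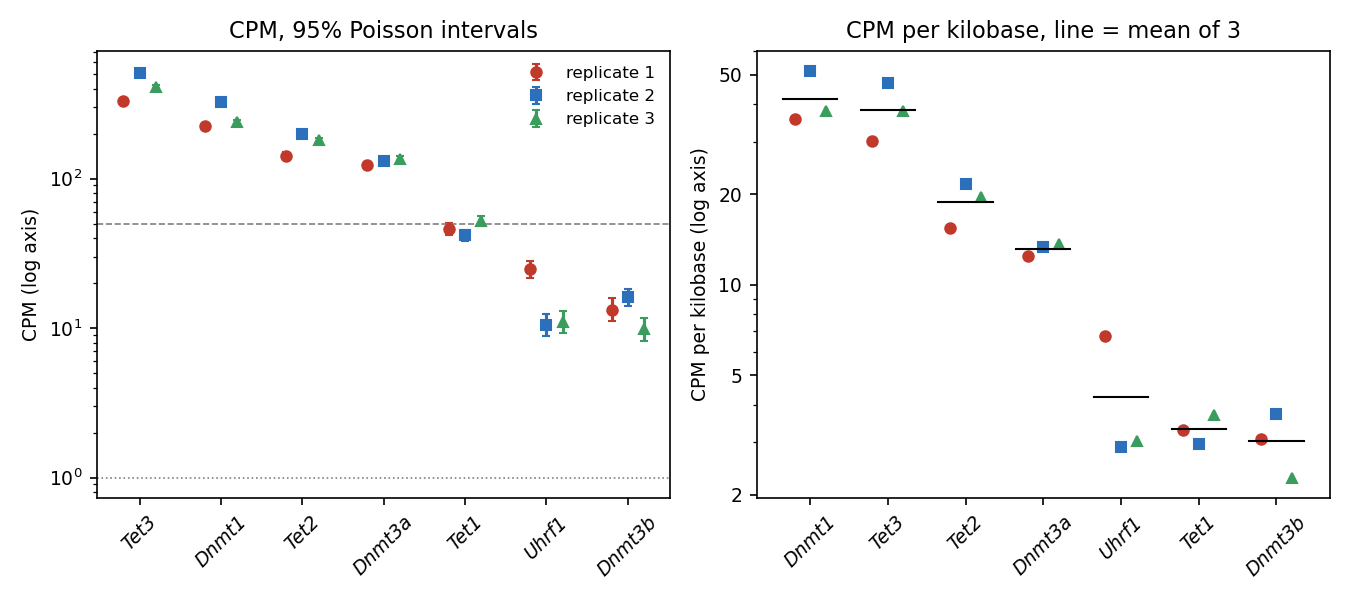
Levels of the 7 genes in each of the 3 libraries on log axes, as CPM with 95% Poisson intervals (left, dashed line at 50 CPM and dotted line at 1 CPM) and as CPM per kilobase of gene length with the mean of 3 libraries as a line (right). Tet3 leads by CPM and Dnmt1 by CPM per kilobase, and replicate 1 is the highest library for Uhrf1 only.

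The maintenance methyltransferase Dnmt1 stood at 224, 325 and 238 CPM in replicates 1, 2 and 3, and averaged 281 CPM without replicate 1. Replicate 2 was the highest, and its 95% Poisson interval (315 to 334 CPM) lay clear of those of the other two. The mean was 262 ± 54.3 CPM (SD, n = 3), above 50 CPM by 2.39 on the log2 scale (edgeR adjusted p = 2.10e-06). Per kilobase the level was 41.6 ± 8.62 CPM, the highest of the 7 genes, and 90.8% of the genes tested had a lower one. Dnmt1 (Entrez gene 13433) spans chromosome 9, 20907206 to 20959888, on the minus strand of GRCm38, the build also called mm10.

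Uhrf1, which finds CpG sites methylated on the old strand alone and recruits Dnmt1 to them, was read at 24.7, 10.6 and 11.01 CPM. Replicate 1 stood above the others, with a 95% Poisson interval of 21.7 to 28.1 CPM against 8.92 to 12.4 and 9.29 to 12.96 CPM. Replicates 2 and 3 overlapped. The mean was 15.4 ± 8.05 CPM, and 10.8 CPM without replicate 1, and it lay below 50 CPM with all libraries (log2 difference -1.70, edgeR adjusted p = 0.00238) and without replicate 1 (-2.24, edgeR adjusted p = 6.99e-04). Per kilobase Uhrf1 was read at 4.23 ± 2.21 CPM. Its libraries spread more (SD of 0.69 in log2 CPM) than those of 86.3% of the 3557 tested genes whose mean lay within 2-fold of its own. Uhrf1 (Entrez gene 18140) spans chromosome 17, 56303337 to 56323486, on the plus strand.

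The maintenance pair was thus unequal. Within each library Dnmt1 exceeded Uhrf1 per kilobase by 5.26, 17.8 and 12.5 times in replicates 1, 2 and 3. The log2 difference of CPM per kilobase was 3.36 ± 0.89 (SD, n = 3), of 1 sign in 3 of 3 libraries, with an exact sign-flip permutation p of 0.25 (two-sided), the smallest that 3 libraries allow. Uhrf2, a relative of Uhrf1 that also binds modified CpG sites, was read at 59.9, 69.7 and 81.6 CPM. It stood above Uhrf1 per kilobase in every library, by 2.499, 6.81 and 7.65 times, and lay above 50 CPM (edgeR adjusted p = 0.0148).

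Both genes of the maintenance pair carry a match to the E2F consensus near a RefSeq start site, and the upstream match of each is printed because Dnmt1 and Uhrf1 were the 2 of the 7 genes with any match. E2F factors switch on genes for DNA replication. The words searched, on both strands, were TTTCCCGC, TTTGGCGC, TTTCGCGC and TTTGCCGC, in windows from 250 bases before to 50 bases after each start. Of 32851 windows in RefSeq's GRCm38.p6 promoters, 2.26% held a match, which is 704 of 27025 genes. All 7 genes had a window (12 in all). The Dnmt1 window held 2 matches, and the one not printed (TTTGGCGC) lies 33 bases into the transcribed part. Capitals mark the upstream match, which begins 219 bases before 1 of the Dnmt1 starts (chr9:20952824-20952853, minus strand, as the reverse complement of TTTCGCGC) and 185 bases before 1 of the Uhrf1 starts (chr17:56304063-56304312, plus strand, 250 bases).
Dnmt1: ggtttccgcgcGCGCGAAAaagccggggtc
Uhrf1: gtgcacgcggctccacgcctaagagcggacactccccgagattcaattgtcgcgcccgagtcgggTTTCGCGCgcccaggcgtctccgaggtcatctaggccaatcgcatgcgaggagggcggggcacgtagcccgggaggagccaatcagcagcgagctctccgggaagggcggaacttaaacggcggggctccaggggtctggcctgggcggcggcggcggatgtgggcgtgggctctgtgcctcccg
The matched word is the same for both genes, read from opposite strands of the printed sequences. Its relation to the level of either gene in each library was not tested. A match is a description of the sequence and says nothing about binding in these cells. In the list of S phase and mitosis genes, 6 of the 15 genes with a window held a match. So did 4 of 10 partners of the methyltransferases and 0 of 6 readers of methylated CpG, lists described below.

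Dnmt3a, the main de novo methyltransferase of blood cells, was read at 123, 131 and 134 CPM. The 3 libraries overlapped in their 95% Poisson intervals, which ran from 116 CPM at the lowest bound to 141 CPM at the highest. Its mean of 129.5 ± 6.10 CPM lay above 50 CPM (log2 difference 1.37, edgeR adjusted p = 4.29e-05). Dnmt3a was the most even of the 7 genes, with an SD of 0.07 in log2 CPM, smaller than that of all but 4.12% of the 2475 tested genes within 2-fold of its mean. Per kilobase it was read at 13.1 ± 0.619 CPM. It is Entrez gene 13435, chromosome 12, 3801559 to 3914443, plus strand. The antisense gene Dnmt3aos overlaps its exons and was read at 3.28, 0.357 and 0.759 CPM. The sources used here do not say whether the counting used strand, so reads of the overlap may have been shared.

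Dnmt3b, the other de novo enzyme, best known from the early embryo, was read at 13.3, 16.1 and 9.87 CPM. Replicates 2 and 3 did not overlap in their intervals (14.1 to 18.4 and 8.25 to 11.7 CPM), and replicate 1 overlapped both. The mean of 13.1 ± 3.13 CPM lay below 50 CPM (log2 difference -1.93, edgeR adjusted p = 5.03e-04). Per kilobase its mean over all 3 libraries was the lowest of the 7, at 3.03 ± 0.724 CPM, but not in every library. It stood at 3.08, 3.73 and 2.28 CPM per kilobase, and in replicate 2 both Uhrf1 (2.89) and Tet1 (2.96) were lower. Without replicate 1, Uhrf1 and Dnmt3b differed by 0.01 on the log2 scale. It is Entrez gene 13436, chromosome 2, 153649411 to 153687730, plus strand. Dnmt3l, the inactive relative that assists de novo methylation in germ cells, had 0.845, 0 and 0.228 CPM, where 0 counts in replicate 2 allow up to 0.214 CPM. The floor is 3 counts and covers counting error only.

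Of the 3 methyltransferases, Dnmt1 held 71.7 ± 2.98% of the summed CPM per kilobase, Dnmt3a 23.1 ± 3.17% and Dnmt3b 5.24 ± 0.902% (SD, n = 3). Dnmt1 exceeded Dnmt3a by 1.64 ± 0.26 and Dnmt3a exceeded Dnmt3b by 2.11 ± 0.37 on the log2 scale per kilobase, each in 3 of 3 libraries. The split was alike in the 3 libraries, with Dnmt1 between 69.6 and 75.1%. The mean of the maintenance genes Dnmt1 and Uhrf1 exceeded that of the de novo genes by 1.31, 0.79 and 0.92 on this scale (1.01 ± 0.27), although 1 gene of each pair was high and 1 was low.

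Tet3, the TET enzyme of the egg and of many differentiated cells, stood at 329.7, 512 and 412 CPM, the highest of the 7 genes before scaling by length. Replicate 1 was lowest and replicate 2 highest, and none of the 3 Poisson intervals overlapped. The mean of 418 ± 91.2 CPM lay above 50 CPM (log2 difference 3.06, edgeR adjusted p = 4.81e-07). At 38.3 ± 8.36 CPM per kilobase it stood beside Dnmt1, which stood 0.24 and 0.13 higher on the log2 scale per kilobase in replicates 1 and 2 and level in replicate 3. Without replicate 1 its mean was 462 CPM. Tet3 is Entrez gene 194388, chromosome 6, 83362373 to 83457208, minus strand.

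Tet2, which restrains the expansion of blood stem cells and shapes myeloid and T cell programmes, was read at 142, 199 and 180.4 CPM. Replicate 1 was again lowest, with an interval of 134 to 150 CPM, clear of both others (173 to 188 and 192 to 207 CPM). The mean of 174 ± 29.2 CPM lay above 50 CPM (log2 difference 1.80, edgeR adjusted p = 1.23e-05), and was 189.8 CPM without replicate 1. The level per kilobase was 18.9 ± 3.19 CPM. Tet2 is Entrez gene 214133, chromosome 3, 133463677 to 133545136, minus strand. The antisense gene Gm42567 overlaps its exons and was not analysed here. Its promoter window is printed because CpG sites, the substrate of these enzymes, were denser in it than in 99.8% of the 32851 windows. It held 57 CpG in 300 bases, against a median of 7 over all windows. The 250 bases before the start (chr3:133544391-133544640, minus strand) hold 51, in capitals.
Tet2: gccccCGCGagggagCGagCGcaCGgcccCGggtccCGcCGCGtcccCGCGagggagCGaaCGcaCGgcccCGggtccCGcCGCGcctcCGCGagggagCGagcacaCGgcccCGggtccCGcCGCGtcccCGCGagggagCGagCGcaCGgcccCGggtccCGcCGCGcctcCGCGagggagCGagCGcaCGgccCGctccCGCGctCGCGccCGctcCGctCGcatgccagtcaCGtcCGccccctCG
Methylation itself was not measured in these libraries.

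Tet1, known from embryonic stem cells, was read at 46.3, 41.7 and 52.0 CPM. Replicates 2 and 3 were separate in their intervals (38.4 to 45.2 and 48.2 to 56.1 CPM), and replicate 1 overlapped both. The mean of 46.7 ± 5.16 CPM was not separated from 50 CPM (log2 difference -0.10, edgeR adjusted p = 0.546, and 0.487 to 0.881 under the alternatives). It is the longest of the 7 genes, with 14082 bases, and per kilobase its level was 3.31 ± 0.367 CPM. Tet1 is Entrez gene 52463, chromosome 10, 62804570 to 62887469, minus strand.

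Within the TET family, Tet3 held 63.0 ± 2.18% of the summed CPM per kilobase, Tet2 31.3 ± 0.929% and Tet1 5.63 ± 1.34% (SD, n = 3). Tet3 exceeded Tet2 by 1.00 ± 0.09 on the log2 scale, the most even of the differences between members. The mean of Tet2 and Tet3 exceeded Tet1 by 2.68, 3.39 and 2.85 (2.97 ± 0.37). The 3 TET genes together differed from the 3 methyltransferase genes in summed CPM per kilobase by less than the spread between libraries, with a ratio of 0.957, 1.04 and 1.14 in replicates 1, 2 and 3 (1.05 ± 0.0906).

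Per kilobase the order by mean was Dnmt1, Tet3, Tet2, Dnmt3a, Uhrf1, Tet1 and Dnmt3b. Of the 21 pairs, 17 kept 1 sign in all 3 libraries, each with an exact permutation p of 0.25 (two-sided) and 0.309 after Benjamini and Hochberg's adjustment over the 21 pairs. No pair could go below 0.25 with 3 libraries. The other 4 pairs did not keep 1 sign in all 3 libraries. They were Dnmt1 and Tet3 (0.12 ± 0.12 log2), Uhrf1 and Tet1 (0.23 ± 0.69), Uhrf1 and Dnmt3b (0.38 ± 0.73), and Tet1 and Dnmt3b (0.15 ± 0.50). The narrowest gap that held in every library was that of Tet2 over Dnmt3a, at 0.31, 0.70 and 0.52 log2. By CPM, with no length scaling, Tet3 stood above Dnmt1 by 0.67 log2 and Tet1 above Uhrf1 by 1.70, the reverse of the order per kilobase. Tet1 then stood above Dnmt3b by 1.85 log2 in place of 0.15, with 1 sign in all 3 libraries.

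**Figure D2:**
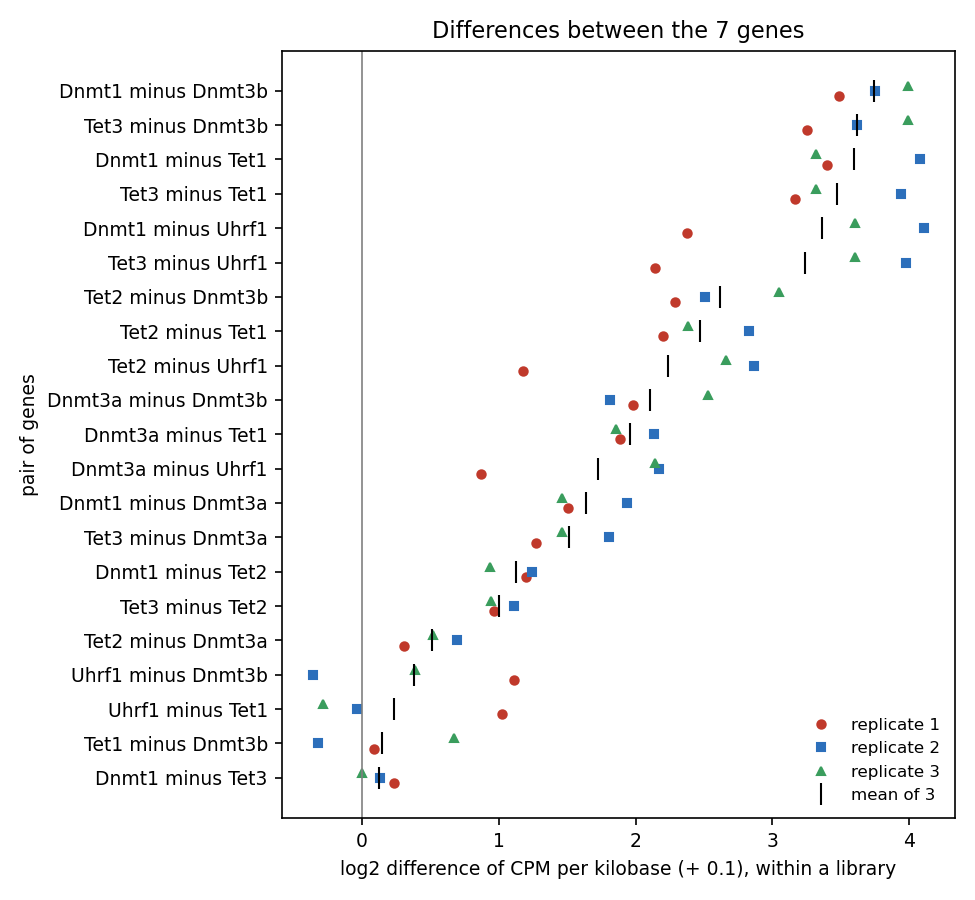
Differences between each pair of the 7 genes within a library, as log2 CPM per kilobase with a pseudocount of 0.1, with 1 symbol per replicate and a bar at the mean of 3. The 4 pairs at the bottom have points on both sides of 0 (a library at 0.00 for Dnmt1 and Tet3), and the other 17 lie to the right of 0 in all 3 libraries.

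Across libraries the 7 genes did not follow one course. Only Uhrf1 was highest in replicate 1, a library in which 45.2% of the genes tested had their highest level. Dnmt1, Dnmt3a, Tet2 and Tet3 were lowest there, as were 35.2% of the genes tested. The sum of the 17 S phase and mitosis genes was 1955, 688 and 712 CPM, and 14 of the 17 were highest in replicate 1. All 17 lay above 1 CPM (15 without replicate 1) and 6 above 50 CPM (4 without replicate 1), against 68.6% and 19.9% of all genes tested. Mki67, a marker of dividing cells, was read at 1009, 108 and 173 CPM and made the largest part of the sum in replicate 1. Pcna, the replication clamp, was read at 40.7, 15.8 and 30.9 CPM. The other 3 of the 17 were highest in replicate 2, among them Mcm6 (106, 132 and 97.6 CPM) and E2f1 (3.80, 4.35 and 2.73 CPM). In replicate 1 the summed erythroid, macrophage and B cell markers were also highest, and the part of any of these lists in the level of Uhrf1 was not tested. By Euclidean distance between centred log2 profiles over the 3 libraries, the nearest of 123 other list genes to Uhrf1 was Tyms, the thymidylate synthase of S phase (13.5, 6.06 and 6.00 CPM, distance 0.062), followed by the B cell gene Cd79b (distance 0.125).

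The other 6 genes had mixed neighbours. Nearest to Tet3 was Tcf7, a transcription factor of T cells (793, 1228 and 988 CPM, distance 0.0044), and nearest to Tet2 was Lck, the T cell kinase (379, 545 and 487 CPM, distance 0.024). The second nearest were Ogdh to Tet3 (0.066) and Sdha to Tet2 (0.063), both genes of mitochondrial metabolism. Nearest to Tet1 was Cd5, a T cell surface antigen (166, 141 and 183 CPM, distance 0.066), followed closely by the glycosylase gene Neil1 (0.075). Dnmt1 lay nearest to Shmt1, a folate enzyme (distance 0.0065), and then Zbtb4 (0.095). Dnmt3a lay nearest to the repair genes Lig3 (0.045) and Apex1 (0.053), and Dnmt3b to Dmap1 (0.073), whose product binds Dnmt1, and then Ccr9 (0.11). The profiles rest on 3 libraries and are given as a description. The sum of the T cell markers was lowest in replicate 1, as were Tet2, Tet3 and Dnmt1, but its genes were split. Of the 8, Tcf7, Il7r, Lck and Cd3e were lowest in replicate 1, and Cd247, Cd3d, Cd3g and Cd5 were lowest in replicate 2. The part of the T cell share in their levels was not tested.

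**Figure D3:**
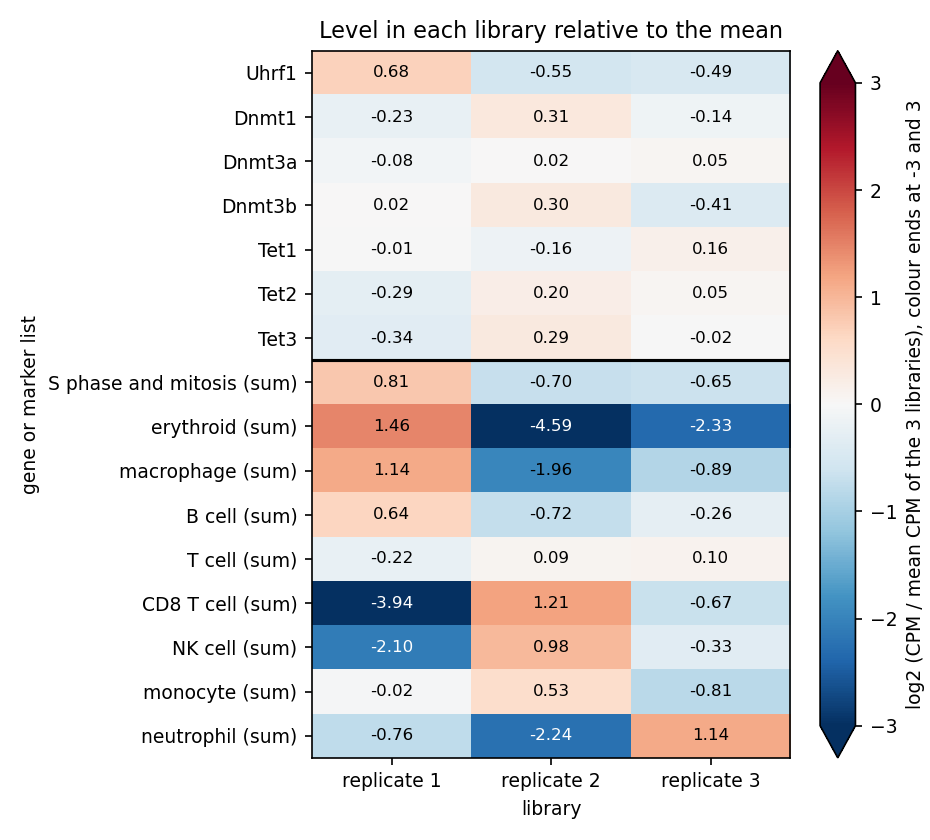
Level of each of the 7 genes (above the line) and of the summed CPM of 9 marker lists (below it) in each library, as log2 of the ratio to the mean of the 3 libraries, with replicates in columns. Uhrf1 (0.68) is highest in replicate 1, as are the sums of the S phase and mitosis (0.81), erythroid (1.46), macrophage (1.14) and B cell (0.64) lists. Dnmt1, Dnmt3a, Tet2 and Tet3 are lowest there.

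Of 11 partners of the methyltransferases, 9 lay above 1 CPM (68.6% of all genes tested), 1 above 50 CPM (19.9%) and 8 below 50 CPM (66.7%). The count below 50 CPM was 4 without replicate 3. Their median was 15.99 CPM and, per kilobase, 10.5 CPM. Beside it, Dnmt1 stood at 41.6, Dnmt3a at 13.1, Uhrf1 at 4.23 and Dnmt3b at 3.03 CPM per kilobase. Usp7, a deubiquitinase that stabilises Dnmt1 and Uhrf1, was read at 362, 459.8 and 468 CPM. Hells, the remodeller that opens chromatin to methylation, was read at 38.8, 26.7 and 34.8 CPM, below 50 CPM (edgeR adjusted p = 0.0194), and Trdmt1, a methyltransferase of transfer RNA related to the DNMT family, at 8.65 ± 1.30 CPM. Dppa3, which blocks Uhrf1 in the egg and early embryo, had 0.951, 0.428 and 0.0759 CPM and was not separated from 1 CPM (edgeR adjusted p = 0.643). Of the 11 partners, 8 were highest in replicate 1, against 45.2% of the genes tested.

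Readers of methylated CpG turn the mark into effects on chromatin. The 9 genes listed as readers or their relatives all lay above 1 CPM, with 5 above 50 CPM and 1 below it. Of all genes tested, 68.6%, 19.9% and 66.7% did so. Their median was 70.4 CPM and, per kilobase, 17.95 CPM. Mbd2, which recruits a deacetylase complex, led with 189, 218 and 252 CPM and 119 ± 17.0 CPM per kilobase. Mbd3 was read at 58.0 ± 10.2 CPM and was not separated from 50 CPM (edgeR adjusted p = 0.212). Mbd4, a glycosylase that removes deaminated methylcytosine, was the 1 reader below 50 CPM, at 17.9 ± 1.501 CPM.

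Downstream of the TET enzymes, 14 of 16 partner and repair genes lay above 1 CPM, 3 above 50 CPM and 12 below it, with a median of 14.6 CPM. The shares of all genes tested were 68.6%, 19.9% and 66.7%. Tdg, the glycosylase that excises oxidised methylcytosine, was read at 7.29, 9.56 and 7.29 CPM and lay below 50 CPM (edgeR adjusted p = 3.64e-04). Per kilobase it averaged 2.50 CPM, beside 3.31 CPM for Tet1, the lowest of the TET genes. Ogt, which attaches sugar groups to proteins and binds TET enzymes, was read at 323, 531 and 485 CPM, and Parp1, a sensor of DNA breaks, at 114, 140.3 and 116 CPM. Neil2, a glycosylase, was not separated from 1 CPM (2.11 ± 1.04 CPM, edgeR adjusted p = 0.154). Cxxc4, whose product binds Tet2, was read at 0.317, 0 and 0.380 CPM, too few counts to test.

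Among 12 genes of the methyl donor cycle, 11 lay above 1 CPM, against 68.6% of all genes tested. Of the 12, 3 lay above 50 CPM and 7 below it, near the 19.9% and 66.7% of all genes tested. Mat2a, which makes the methyl donor S-adenosylmethionine, was read at 102, 133 and 162 CPM and its partner Mat2b at 69.9 ± 7.91 CPM. Ahcy, which clears the product of methyl transfer, was read at 2.64, 3.64 and 2.28 CPM (edgeR adjusted p = 0.0131 against 1 CPM). Mat1a, the liver form, had 0 counts in replicate 2. Among 9 genes that make or consume the cosubstrate and cofactors of TET enzymes, all 9 lay above 1 CPM, 2 above 50 CPM and 4 below, against 68.6%, 19.9% and 66.7% of all genes tested. Sdha, which removes the TET inhibitor succinate, was read at 235 ± 37.5 CPM. Idh2, a mitochondrial source of alpha-ketoglutarate, was read at 43.4 ± 5.99 CPM and Idh1, a cytosolic one, at 26.5 ± 4.34 CPM. D2hgdh, which clears the inhibitor hydroxyglutarate, stood at 18.9 ± 5.27 CPM.

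**Figure D4:**
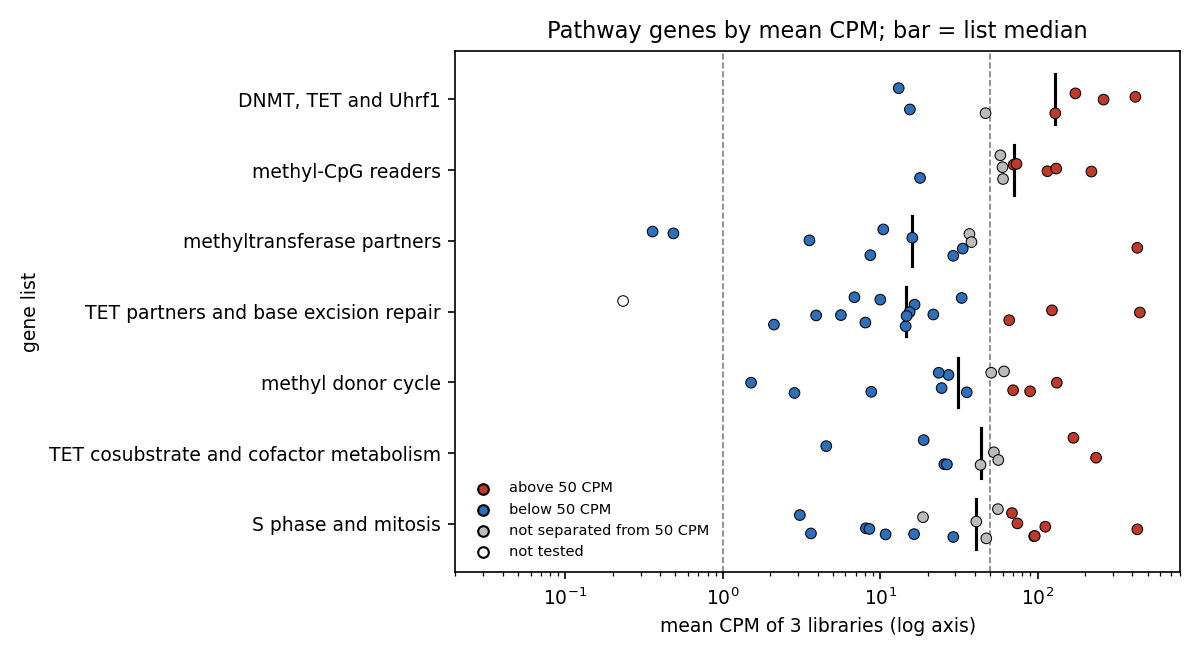
Mean CPM of the 3 libraries on a log axis for each gene of 7 lists, with 1 point per gene, coloured by edgeR's call against 50 CPM, a bar at the list median and dashed lines at 1 and 50 CPM. The 7 methylation enzymes have the highest median CPM, 129.5, with no scaling by length. The lists of methyltransferase partners and of TET partners and repair genes have medians of 15.99 and 14.6 CPM. Per kilobase the median of the 7, 13.1 CPM (Dnmt3a), is below those of the readers (17.95), the cosubstrate genes (15.6) and the methyl donor genes (15.5). It is above those of the remaining lists.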

How the data were processed

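Bulk RNA sequencing covered 3 libraries. The authors deposited whole-number read counts per gene with a gene length in bases (other unit: bases), per the file headers. Tools named in the submitters' processing notes, without roles, are STAR 2.75, DESeq2 1.18.1, featureCounts and bcl2fastq; the build is mm10. The annotation, the strand setting and the handling of repeated matches are not given in the sources used here. The labels' protocols name a kit that keeps strand.

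CPM came from edgeR 4.0.16, using TMM scaling (factors 1.04, 1.01 and 0.950 for replicates 1, 2 and 3). Genes with at least 10 summed counts were tested (15490) against 1 and 50 CPM by edgeR's quasi-likelihood F test with an intercept alone and the reference in the offset, two-sided. The F statistic was written out from the fit, because the packaged function needs a design of more columns. Benjamini-Hochberg adjustment ran over all genes tested, at a threshold of 0.05, and the test was checked on simulated data. The libraries came from 3 repeat experiments, but the number of mice behind each is not given. The p-values thus reflect the spread among these 3 libraries alone, and how far that spread is technical was not tested. Gene-to-gene comparisons used log2(CPM per kilobase + 0.1) within a library and exact sign-flip permutation tests. Poisson intervals (95%) and floors of 3 counts cover counting error only, since the reads carry no molecular identifiers in the table.

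The 7 genes and the gene lists were chosen with earlier results of these data known. The genes named besides these are the 2 highest and 2 lowest of each list per kilobase, lists of up to 5 genes whole, a fixed set of partners, and for each of the 7 genes the 2 nearest profiles among list genes with a mean of at least 5 CPM. Some genes that this rule names are not reported here. Hells, Trdmt1, Tdg, Uhrf2, Pcna, Idh1 and Idh2 belong to the fixed set. Promoter sequences and gene positions are RefSeq's, GRCm38.p6, and exon overlaps come from GENCODE M21 on the same build. Alternatives were DESeq2 1.42.0, limma 3.58.1, other scalings, filters, pseudocounts and lengths, and leaving out each replicate.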

Additional observations from a re-analysis of the deposited data

How the results depend on the processing

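All 7 genes stayed above 1 CPM, 4 above 50 CPM and 2 below it under all 11 alternatives run for each count (DESeq2 and limma tests, 3 other scalings, 2 other filters, robust empirical Bayes, and each replicate left out). Of the single-gene values behind these counts, 153 kept direction and side of the threshold and 1 did not: with totals that leave out mitochondrial ribosomal RNA, which held 17.8, 6.22 and 13.1% of counts, Tet1 stood 0.093 above 50 CPM on the log2 scale, a difference that was again not significant. The share of all genes called did move. Calls below 50 CPM fell from 10336 of 15490 genes to 5513 of 14979 without replicate 3, and the cause was not tested. The 2 of 7 below 50 CPM then stand nearer the share of all genes. With edgeR's own expression filter, 6202 of 11056 genes lay below 50 CPM and 3126 above it. With that filter 10707 of the 11056 lay above 1 CPM, so 7 of 7 is near the share of all genes. With no length scaling the maintenance pair exceeded the de novo pair by 0.57 rather than 1.01 log2, and Tet2 and Tet3 exceeded Tet1 by 2.51 rather than 2.97. Among the pairs, Dnmt1 minus Tet3 turned to -0.67 and Uhrf1 minus Tet1 to -1.70 with no length scaling. Leaving out a replicate gave -0.16 (without replicate 1) to 0.49 for Uhrf1 minus Tet1 and -0.12 (without replicate 3) to 0.38 for Tet1 minus Dnmt3b. Pseudocounts of 0.01 and 1 and, added after seeing the data, the longest GENCODE transcript as length turned no pair. No paired analysis was possible because there is 1 group of libraries. Depth limits Dnmt3l, Dppa3 and Cxxc4, whose levels lay near the floor of 3 counts (0.214 to 0.317 CPM).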
